A study of Homo sapiens with 24 samples.

Results

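The 10 genes described here encode the core AP-1 and EGR transcription factors: FOS, FOSB, FOSL1 and FOSL2, JUN, JUNB and JUND, and EGR1, EGR2 and EGR3. They were taken by symbol from the 18172 genes with a symbol in the deposited table, and all 10 had exactly 1 entry there. The cells were HCT116, a human colorectal carcinoma line, transfected with siMock (control) or with siACL, which depletes ATP citrate lyase, and grown in DMEM with glucose. Each arm received no butyrate or a dose of 0.5, 2 or 5 mM over 3 days, which makes 8 groups of 3 arrays called biological replicates, 24 Illumina arrays in all. The comparisons ask how these genes respond to each butyrate dose and whether the response differs between the arms. The sources used here do not give the siRNA sequences or their number.

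Immediate early genes are switched on within minutes of growth factors or stress without new protein synthesis, and several of the members are textbook examples. FOS and JUN family proteins pair through leucine zippers to form AP-1, which binds the TGANTCA site, while JUN proteins with ATF partners also bind TGACGT-type sites. The 3 EGR proteins are zinc finger factors that bind the GCGNGGGCG site. Their promoters are controlled by the serum response factor SRF at CArG boxes together with ternary complex factors downstream of ERK, and by CREB and ATF proteins. Butyrate, a product of bacterial fermentation in the colon, is a fuel of colonocytes and an inhibitor of histone deacetylases. ATP citrate lyase makes the cytosolic and nuclear acetyl-CoA that histone acetylation uses.

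The promoters of 5 members whose scores moved are shown as examples with a motif match. JUND, which also moved and holds matches, is not shown. Sequence upstream of the windows was not searched, so elements there are not seen. The windows are the 250 bases before the RefSeq start (GRCh38.p14), 5′ to 3′ on the strand of the gene, and capitals mark matches to the motifs searched. For JUN this is chr1:58784048-58784297 (minus strand), for FOS chr14:75278578-75278827, for FOSB chr19:45467746-45467995, for EGR1 chr5:138465229-138465478 (all plus strand) and for EGR2 chr10:62816367-62816616 (minus strand).
JUN: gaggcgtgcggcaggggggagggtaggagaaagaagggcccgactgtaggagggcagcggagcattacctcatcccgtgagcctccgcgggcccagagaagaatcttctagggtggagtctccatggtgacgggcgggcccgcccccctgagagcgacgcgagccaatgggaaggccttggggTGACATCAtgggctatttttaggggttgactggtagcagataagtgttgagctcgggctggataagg
FOS: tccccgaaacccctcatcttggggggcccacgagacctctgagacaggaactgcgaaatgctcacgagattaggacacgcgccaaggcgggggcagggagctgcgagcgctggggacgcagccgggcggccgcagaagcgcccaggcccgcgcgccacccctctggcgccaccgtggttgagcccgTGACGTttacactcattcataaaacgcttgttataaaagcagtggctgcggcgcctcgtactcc
FOSB: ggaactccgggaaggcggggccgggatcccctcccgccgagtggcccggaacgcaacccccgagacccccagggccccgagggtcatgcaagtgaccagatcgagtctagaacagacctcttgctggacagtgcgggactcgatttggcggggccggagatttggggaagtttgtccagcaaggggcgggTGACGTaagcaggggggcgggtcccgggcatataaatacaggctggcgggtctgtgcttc
EGR1: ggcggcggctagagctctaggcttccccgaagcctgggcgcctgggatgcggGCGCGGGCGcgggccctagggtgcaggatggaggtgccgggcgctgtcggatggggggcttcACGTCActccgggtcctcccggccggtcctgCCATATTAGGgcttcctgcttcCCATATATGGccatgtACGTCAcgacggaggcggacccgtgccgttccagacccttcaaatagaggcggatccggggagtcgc
EGR2: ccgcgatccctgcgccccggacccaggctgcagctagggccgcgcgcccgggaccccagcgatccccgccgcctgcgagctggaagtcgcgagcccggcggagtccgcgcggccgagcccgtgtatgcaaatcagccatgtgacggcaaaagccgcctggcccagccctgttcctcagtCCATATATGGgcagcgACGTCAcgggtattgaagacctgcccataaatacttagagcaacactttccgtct
The JUN window holds TGACATCA, the AP-1-like element of this promoter, from position -67 to -60 before the start. The EGR1 window has 2 CArG boxes (-105 to -96 and -83 to -74), 2 TGACGT motifs (-136 to -131 and -67 to -62) and a GCGNGGGCG match (-198 to -190). EGR2, shown for 1 of its 3 RefSeq starts, has a CArG box (-71 to -62) and TGACGT (-55 to -50), and the windows before its other starts held no match. TGACGT also lies at -64 to -59 in FOS and at -60 to -55 in FOSB. The motifs searched on both strands were TGACGT, its palindrome TGACGTCA (which holds it on both strands, overlapping), TGANTCA, TGACATCA, GCGNGGGCG and the CArG box. Among 35116 RefSeq promoter windows of the same length, 7.1% hold TGACGT, 1.65% TGACGTCA, 6.57% TGANTCA, 2.37% TGACATCA, 8.41% GCGNGGGCG and 1.16% a CArG box. Promoter windows were searched for 8 of the 10 members. FOSL1 and EGR3 were left out of the search, so nothing is known here of motifs in their promoters. The search gave no match in JUNB, TGACGT in FOSL2, and TGACGTCA and TGACGT in JUND. A match is a run of letters and was not tested for binding.

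Every value below is a normal score, which turns the rank of a gene on an array into the matching quantile of a normal distribution. Genes in mid-ranking have a score of 0, a difference is given in score units ± standard error (SE), and no fold change can be drawn from it. A rise of some genes is offset by falls of others on this scale, and in these bulk samples fewer cells expressing a gene cannot be told apart from less RNA per cell. The residual SD between arrays of a group was 0.026 for FOS, 0.027 for JUND, 0.029 for FOSB and EGR1, 0.036 for JUN, 0.044 for JUNB, 0.069 for FOSL1 and 0.111 for EGR2. It was 0.252 for FOSL2 and 0.401 for EGR3, so these genes are measured less precisely. Arrays of a group correlated at 0.928 to 0.955 across genes. Epithelial markers were at 1.33 to 1.94 for EPCAM, 1.76 to 2.26 for KRT8, 0.05 to 0.38 for KRT18 and 1.06 to 1.40 for CDH1. The endothelial markers PECAM1 (-2.99 to -0.49) and VWF (-3.33 to -0.19) and hepatocyte ALB (-1.19 to -0.20) stayed below 0, while fibroblast COL1A1 was between -0.05 and 0.61.

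ACLY, the siRNA target, read 1.50, 1.53 and 1.53 without butyrate in siMock cells and 1.17, 1.21 and 1.17 in siACL cells. Its siACL minus siMock difference was -0.336, -0.405, -0.415 and -0.625 from no butyrate to the highest dose (each ± 0.022, adjusted p at most 6.33e-08), and the arms did not overlap at any dose. ACLY also fell with butyrate in siMock cells, by 0.213 at 5 mM, so its score depends on butyrate as well as on the siRNA.

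Butyrate moved most of these genes upward in both arms, and FOSL1 downward. Against untreated siMock cells, 6 of the 10 rose and 1 fell at 0.5 mM, where 12.0% of all genes rose and 10.1% fell (limma, adjusted p under 0.05). At 2 mM 8 rose and 1 fell (18.7% and 19.3% of all genes), and at 5 mM 6 rose and 1 fell (25.6% and 25.2%), so a call is common at the highest dose. The median difference of the members was 0.152, 0.198 and 0.299, beside -0.008, -0.010 and -0.013 over all genes. In siACL cells 5 rose and none fell at 0.5 mM (4.79% and 2.45% of all genes), and 8 rose and 1 fell at both 2 mM (13.7% and 12.8%) and 5 mM (22.7% and 22.6%). FOS, JUN, EGR1 and EGR2 were called higher at each of the 3 doses in both arms. The doses of an arm are compared with the same 3 untreated arrays. Fitted on only the arrays compared, JUN alone kept its call at 0.5 mM in siACL cells (FOS adjusted p 0.127, FOSB 0.0838, EGR1 0.0753, EGR2 0.0635), and FOSB (0.133) and EGR2 (0.0565) lost theirs at 0.5 mM in siMock cells. At 2 mM such fits lost FOSB (adjusted p 0.199) and JUND (0.0724) in siMock cells and FOSL1 (0.0559) in siACL cells.

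**Figure D1:**
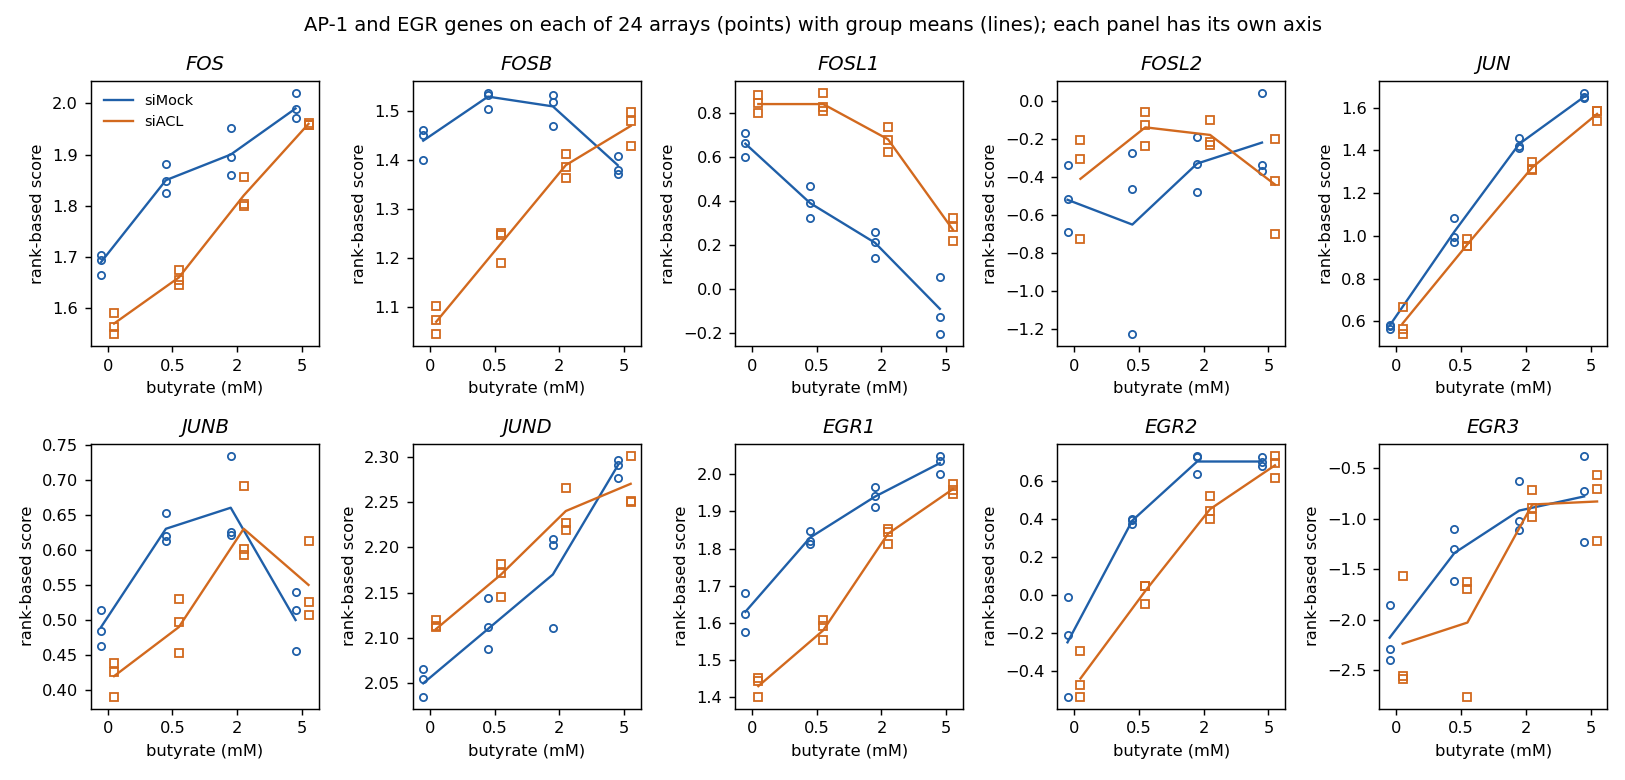
Rank-based score of each gene (vertical axes, 1 scale per panel) against butyrate dose in mM, with a point for each of the 24 arrays and lines through the group means; siMock is blue circles and siACL orange squares. JUN climbs from about 0.58 to 1.65 in siMock arrays with siACL close beside it, FOSL1 declines with siACL above siMock, and the FOSB lines cross between 2 and 5 mM.

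JUN, the central AP-1 subunit that pairs with every FOS protein, rose step by step. In siMock cells it read 0.58, 0.58 and 0.57 untreated, 0.97, 0.99 and 1.08 at 0.5 mM, 1.46, 1.42 and 1.41 at 2 mM, and 1.65, 1.67 and 1.64 at 5 mM. The siACL arrays gave 0.66, 0.56 and 0.54 untreated, 0.95, 0.95 and 0.99 at 0.5 mM, 1.35, 1.31 and 1.31 at 2 mM, and 1.54, 1.58 and 1.58 at 5 mM. Within each arm no array of a dose overlapped the next. The differences from untreated siMock cells were 0.440, 0.855 and 1.08 (SE 0.031, adjusted p at most 1.83e-08), and those in siACL cells were 0.374, 0.733 and 0.979 (adjusted p at most 4.17e-07). Each step between neighbouring doses was also called, with 0.415 from 0.5 to 2 mM and 0.223 from 2 to 5 mM in siMock cells and 0.359 and 0.246 in siACL cells. The mean position of JUN went from the 71.8 percentile of the array to the 95.1 percentile in siMock cells, and its change at 5 mM lay at the 97.1 percentile of the changes of all genes. For other members that position was 98.2 (EGR3), 96.4 (EGR2), 87.3 (EGR1), 82.5 (FOS) and 81.6 (FOSL2, not called). It was 77.3 for JUND, 53.5 for JUNB, 44.8 for FOSB and 4.0 for FOSL1.

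JUND, a JUN protein usually present in resting cells, also rose but within a narrow span at the top of the array. Its siMock arrays read 2.07, 2.05 and 2.04 untreated, 2.09, 2.14 and 2.11 at 0.5 mM, 2.20, 2.21 and 2.11 at 2 mM and 2.28, 2.30 and 2.29 at 5 mM, and siACL arrays went from 2.11, 2.12 and 2.11 to 2.30, 2.25 and 2.25. It was called at 2 mM (0.122 ± 0.025 in each arm, adjusted p 0.000665 and 0.00110) and at 5 mM (0.236 and 0.152, adjusted p 2.49e-07 and 5.56e-05), and not at 0.5 mM (0.063, adjusted p 0.0822, and 0.052, adjusted p 0.274). On percentile ranks in place of scores, the 2 mM calls (adjusted p 0.125 and 0.221) and the siACL 5 mM call (0.0859) were lost; the mean percentile moved from 98.0 to 98.9 in siMock cells.

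JUNB, which can oppose JUN at some promoters, was called higher than untreated at 0.5 and 2 mM but not at 5 mM in siMock cells. It read there 0.48, 0.51 and 0.46 untreated, 0.65, 0.61 and 0.62 at 0.5 mM, 0.63, 0.73 and 0.62 at 2 mM and 0.51, 0.46 and 0.54 at 5 mM, where it overlapped the untreated arrays. Differences were 0.140 ± 0.037 at 0.5 mM (adjusted p 0.00930), 0.173 at 2 mM (0.000946) and 0.016 at 5 mM (0.753), and the step from 2 to 5 mM was a fall of -0.157 (adjusted p 0.00324). In siACL cells JUNB read 0.43, 0.39 and 0.44 untreated, 0.50, 0.45 and 0.53 at 0.5 mM, 0.69, 0.59 and 0.60 at 2 mM and 0.61, 0.53 and 0.51 at 5 mM. It was called there at 2 mM (0.210, adjusted p 0.000272) and 5 mM (0.129, adjusted p 0.00715). The siACL 5 mM call was lost without siACL 5 mM replicate 1 (0.097, adjusted p 0.0505).

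FOS, the prototype immediate early gene and partner of JUN, rose with dose in both arms. Its siMock arrays read 1.70, 1.67 and 1.69 untreated, 1.83, 1.88 and 1.85 at 0.5 mM, 1.90, 1.95 and 1.86 at 2 mM, and 1.99, 1.97 and 2.02 at 5 mM. In siACL cells it read 1.59, 1.55 and 1.56, then 1.65, 1.67 and 1.66, then 1.86, 1.80 and 1.80, and 1.96 on all 3 arrays at 5 mM. All treated arrays lay above the untreated ones of their arm. Differences from untreated were 0.164, 0.215 and 0.306 in siMock cells (SE 0.024, adjusted p at most 8e-05) and 0.091, 0.252 and 0.391 in siACL cells. The siACL difference at 0.5 mM had an adjusted p of 0.0274, and it was lost (0.082 to 0.098, adjusted p 0.0511 to 0.110) without siACL untreated replicate 2 or 3 or any 1 of the siACL 0.5 mM replicates.

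FOSB, whose protein can replace FOS in AP-1, followed different courses in the arms. In siMock cells it read 1.46, 1.45 and 1.40 untreated, 1.50, 1.53 and 1.54 at 0.5 mM, 1.53, 1.52 and 1.47 at 2 mM, and 1.38, 1.41 and 1.37 at 5 mM. In siACL cells it started lower, at 1.04, 1.10 and 1.07, and read 1.19, 1.25 and 1.25 at 0.5 mM, 1.39, 1.41 and 1.36 at 2 mM and 1.43, 1.48 and 1.50 at 5 mM. The siMock arrays stayed within 1.37 to 1.54 over all doses, whereas no treated siACL array overlapped the untreated ones. The siACL differences were 0.155, 0.313 and 0.395 (SE 0.026, adjusted p 0.000933, 7.51e-08 and 1.05e-09). The siMock ones were 0.087 at 0.5 mM (adjusted p 0.0218), 0.069 at 2 mM (0.0449) and -0.051 at 5 mM (0.116), and the step from 2 to 5 mM was called lower (-0.120, adjusted p 0.00188). The siMock calls were lost at 0.5 mM (0.069 to 0.083, adjusted p 0.0661 to 0.107) without siMock untreated replicate 3 or siMock 0.5 mM replicate 2 or 3. They were lost at 2 mM (0.051 to 0.076, adjusted p at least 0.0611) without siMock untreated replicate 2 or 3 or siMock 2 mM replicate 1 or 2. The 2 mM call was also lost with array weights (adjusted p 0.0534), over all entries (0.0566) and on percentile ranks (0.113). On percentile ranks the 0.5 mM call was lost as well (0.0719).

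FOSL1, which encodes FRA-1, an AP-1 subunit that lasts longer after stimulation than FOS, was the member called lower than untreated. Its siMock arrays read 0.60, 0.71 and 0.67 untreated, 0.39, 0.47 and 0.32 at 0.5 mM, 0.26, 0.14 and 0.21 at 2 mM, and -0.20, -0.13 and 0.05 at 5 mM. The siACL arrays gave 0.85, 0.80 and 0.88 untreated, 0.81, 0.83 and 0.89 at 0.5 mM, 0.62, 0.68 and 0.74 at 2 mM, and 0.22, 0.28 and 0.32 at 5 mM. All siMock groups were separate from each other, while the siACL arrays at 0.5 mM overlapped the untreated ones. Differences from untreated were -0.264, -0.453 and -0.751 in siMock cells (SE 0.056, adjusted p 0.00210, 4.19e-06 and 3.07e-09). In siACL cells they were -0.001 (adjusted p 0.998), -0.164 (0.0381) and -0.569 (1.64e-07). The siACL call at 2 mM was lost (-0.164 to -0.136, adjusted p 0.0814 to 0.138) without siACL untreated replicate 1 or 3 or siACL 2 mM replicate 1 or 2. It was also lost on percentile ranks (adjusted p 0.0553). At 5 mM the FOSL1 change lay at the 4.0 percentile of the changes of all genes in siMock cells and at the 5.3 percentile in siACL cells.

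FOSL2, which encodes FRA-2, was called in none of the comparisons. Its group means lay between -0.65 and -0.14 and its arrays between -1.22 and 0.04. Its widest difference from untreated was 0.292 ± 0.200 at 5 mM in siMock cells (95% interval -0.129 to 0.713, adjusted p 0.248), an interval that holds changes as large as those of FOS. The siACL differences were 0.272, 0.231 and -0.027.

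EGR1, a zinc finger factor induced by the same signals as FOS, rose at every dose. It read 1.58, 1.62 and 1.68 in untreated siMock cells, 1.81, 1.85 and 1.82 at 0.5 mM, 1.94, 1.96 and 1.91 at 2 mM, and 2.00, 2.04 and 2.05 at 5 mM. It read 1.40, 1.45 and 1.44 in untreated siACL cells, 1.59, 1.55 and 1.61 at 0.5 mM, 1.84, 1.81 and 1.85 at 2 mM, and 1.96, 1.95 and 1.97 at 5 mM. No group overlapped the next dose within its arm. The differences from untreated were 0.199, 0.312 and 0.402 in siMock cells (SE 0.026, adjusted p at most 2.03e-05) and 0.152, 0.405 and 0.528 in siACL cells (adjusted p at most 0.000952). The EGR1 promoter shown above holds the CArG boxes for which the gene is known, and their part in this rise was not tested.

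EGR2, known for its role in myelination and in lymphocytes, rose in both arms. In siMock cells it read -0.01, -0.54 and -0.21 untreated, 0.40, 0.39 and 0.37 at 0.5 mM, 0.72, 0.63 and 0.73 at 2 mM, and 0.70, 0.68 and 0.73 at 5 mM. In siACL cells it read -0.48, -0.30 and -0.54 untreated, 0.05, 0.05 and -0.05 at 0.5 mM, 0.40, 0.52 and 0.44 at 2 mM, and 0.69, 0.61 and 0.73 at 5 mM. The siMock groups at 2 and 5 mM overlapped, and each siACL group lay above the one before it. Differences from untreated were 0.640, 0.949 and 0.952 in siMock cells (SE 0.089, adjusted p at most 4.42e-05) and 0.453, 0.888 and 1.11 in siACL cells (adjusted p at most 0.00338). From 2 to 5 mM the siMock difference was 0.004 (95% interval -0.183 to 0.191) and the siACL one 0.226 (0.039 to 0.413, adjusted p 0.0681).

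EGR3, a relative of EGR1 that growth signals also induce, lay near the bottom of the untreated arrays. It read -2.40, -2.29 and -1.85 in untreated siMock cells, -1.10, -1.62 and -1.31 at 0.5 mM, -0.63, -1.03 and -1.11 at 2 mM and -1.23, -0.38 and -0.72 at 5 mM. In siACL cells the untreated arrays were -2.56, -2.59 and -1.56, those at 0.5 mM -2.77, -1.63 and -1.70, those at 2 mM -0.98, -0.71 and -0.89, and those at 5 mM -0.57, -0.71 and -1.22. All arrays at 2 and 5 mM lay above the untreated ones of their arm, with differences of 1.26 and 1.41 in siMock cells and 1.38 and 1.41 in siACL cells (SE 0.317, adjusted p at most 0.00394). At 0.5 mM it was not called (0.839, adjusted p 0.0697, and 0.208, adjusted p 0.840). A score near -2 is a rank among the lowest few percent of entries, and signal over background is unknown here.

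**Figure D2:**
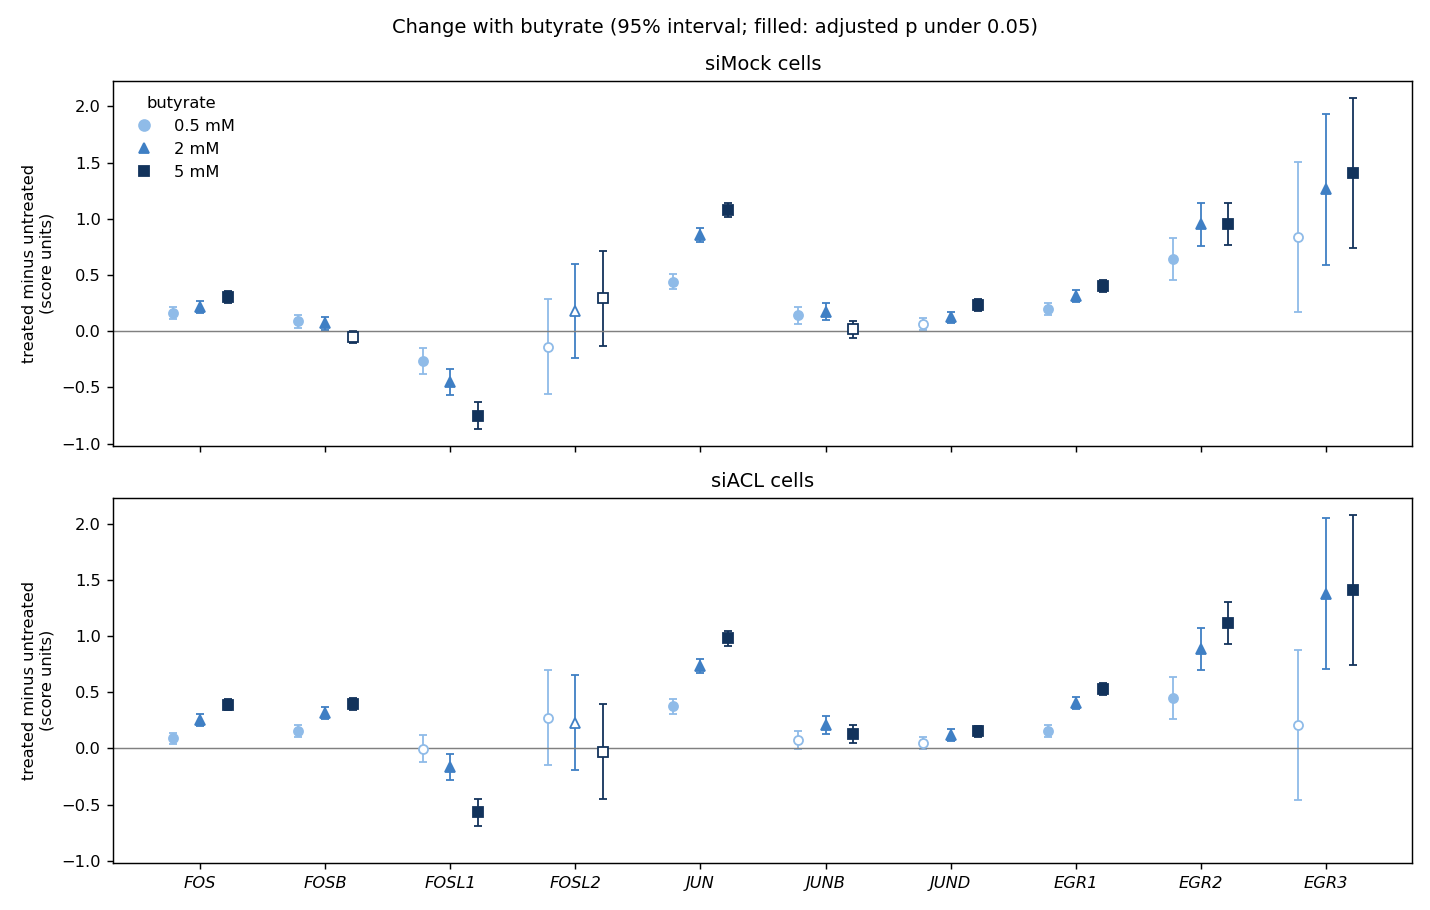
Treated minus untreated difference in score units (vertical axis) for each gene (horizontal axis) at 0.5, 2 and 5 mM in siMock (upper) and siACL cells (lower); bars are 95% intervals and filled points have a limma adjusted p under 0.05. JUN, EGR2 and EGR3 reach about 1 or more in both arms, FOSL1 lies below 0, and FOSB at 5 mM differs between the panels (-0.051 and 0.395).

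The steps between neighbouring doses show where the movement happened. From 0.5 to 2 mM, 3 members rose and 1 fell in siMock cells (10.5% and 11.1% of all genes), and 7 rose and none fell in siACL cells (7.38% and 6.37%). From 2 to 5 mM, 4 rose (FOS, JUN, JUND and EGR1) and 3 fell (FOSB, FOSL1 and JUNB) in siMock cells (14.1% and 15.1% of all genes). In siACL cells 4 rose (FOS, FOSB, JUN and EGR1) and 1 fell (FOSL1) over that step (14.2% and 14.3%). FOSL1 fell by 0.188 from 0.5 to 2 mM and by 0.299 from 2 to 5 mM in siMock cells, and by 0.405 from 2 to 5 mM in siACL cells. EGR1 rose by 0.113 and 0.090 over the same steps in siMock cells and by 0.252 and 0.123 in siACL cells. Fitted on only the arrays compared, JUN alone kept its call from 2 to 5 mM in siMock cells (FOS adjusted p 0.155, FOSB 0.0602, FOSL1 0.0660, JUNB 0.0848, JUND 0.106, EGR1 0.109). From 0.5 to 2 mM FOSL1 (0.0978) and EGR1 (0.0718) lost theirs in siMock cells and FOS (0.0524), FOSB (0.0632), JUNB (0.134) and EGR3 (0.127) in siACL cells, as did FOSB (0.141) from 2 to 5 mM there. On percentile ranks FOS (0.174), JUND (0.294) and EGR1 (0.297) were lost from 2 to 5 mM and EGR1 (0.116) from 0.5 to 2 mM in siMock cells, and FOSB (0.0573) and EGR1 (0.0782) from 2 to 5 mM in siACL cells. Some calls were also lost, with little change in value for most, when 1 array was left out. FOSL1 from 0.5 to 2 mM was lost (-0.190 to -0.152, adjusted p 0.0536 to 0.106) without siMock 0.5 mM replicate 1 or 2 or siMock 2 mM replicate 2, and EGR2 (0.291 to 0.301, adjusted p 0.0522 to 0.0583) without siMock 0.5 mM replicate 3 or siMock 2 mM replicate 1 or 3. FOS from 2 to 5 mM was lost without siMock 2 mM replicate 3 (0.070, adjusted p 0.0517), and EGR1 (0.076 to 0.079, adjusted p 0.0549 to 0.0615) without that array or siMock 5 mM replicate 3. In siACL cells, EGR3 from 0.5 to 2 mM was lost (0.802 to 1.09, adjusted p 0.0647 to 0.116) without siACL 0.5 mM replicate 1 or siACL 2 mM replicate 2. JUNB over that step was lost (0.104 to 0.115, adjusted p 0.0869 to 0.0941) without siACL 0.5 mM replicate 2 or siACL 2 mM replicate 1, and FOSB from 2 to 5 mM (0.067 to 0.081, adjusted p 0.0606 to 0.111) without siACL 2 mM replicate 1 or 3 or siACL 5 mM replicate 2 or 3.

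In siACL cells FOS, FOSB and EGR1 started lower than in siMock cells, and FOSL1 was higher under butyrate. Without butyrate 3 members were lower in siACL than in siMock cells and none higher, where 2.61% of all genes were lower and 3.70% higher. At 0.5 mM 5 were lower and 1 higher (8.42% and 9.26% of all genes), at 2 mM 4 lower and 1 higher (8.52% and 10.6%), and at 5 mM none lower and 2 higher (4.91% and 8.80%). FOSB differed by -0.364 ± 0.026 without butyrate and by -0.296, -0.120 and 0.082 with rising dose (adjusted p 2.13e-07, 1.01e-06, 0.00337 and 0.0442). The arms did not overlap at any of the 4 doses, with siACL arrays below siMock arrays at the first 3 and above them at 5 mM. The 5 mM call was lost (0.068 to 0.093, adjusted p 0.0513 to 0.168) without any 1 of the siMock 5 mM replicates or siACL 5 mM replicate 2 or 3. It was also lost on percentile ranks (adjusted p 0.0989) and over all entries (0.0572). Fitted on only the arrays compared, FOSB kept its call without butyrate (FOS adjusted p 0.133, EGR1 0.121), 5 of 6 calls were kept at 0.5 mM (JUNB 0.0592), FOSL1 kept its call at 2 mM (FOS 0.255, FOSB 0.103, JUN 0.105, EGR1 0.117), and no call was kept at 5 mM (FOSB 0.203, FOSL1 0.0821).

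EGR1 was lower in siACL cells by -0.195 ± 0.026 without butyrate (adjusted p 0.000177), -0.242 at 0.5 mM (5.98e-06) and -0.103 at 2 mM (0.00843), and differed by -0.069 at 5 mM (0.0853). FOS showed -0.120 ± 0.024 (adjusted p 0.00562), -0.193 (2.93e-05), -0.083 (0.0212) and -0.035 (0.415) over the same doses. The arms did not overlap for either gene at any dose, but the gap at 5 mM was past the threshold for neither. FOS at 2 mM was lost (-0.075 to -0.059, adjusted p 0.0776 to 0.121) without siMock 2 mM replicate 2 or siACL 2 mM replicate 2 or 3. On percentile ranks the 2 mM calls of both EGR1 (adjusted p 0.167) and FOS (0.180) were lost. EGR2 was called lower at 0.5 mM (-0.371 ± 0.089, adjusted p 0.00706) and not without butyrate (-0.184, 0.258), at 2 mM (-0.244, 0.0646) or at 5 mM (-0.022, 95% interval -0.209 to 0.165).

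FOSL1 was higher in siACL cells by 0.448 ± 0.056 at 0.5 mM (adjusted p 3.05e-05), 0.474 at 2 mM (1.45e-05) and 0.368 at 5 mM (0.000236), and by 0.185 without butyrate (0.0589). Its arms were separate at every dose. JUN differed between the arms by 0.014 without butyrate (95% interval -0.051 to 0.079) and -0.052 at 0.5 mM (adjusted p 0.284). The differences were -0.108 at 2 mM (adjusted p 0.0192) and -0.085 at 5 mM (0.0797), so JUN was called only at 2 mM. The 2 mM call was lost (-0.103 to -0.093, adjusted p 0.0554 to 0.0791) without siMock 2 mM replicate 1 or siACL 2 mM replicate 2 or 3. It was also lost on percentile ranks (adjusted p 0.165). JUNB was lower at 0.5 mM (-0.135 ± 0.037, adjusted p 0.0159), a call lost (-0.123 to -0.115, adjusted p 0.0620 to 0.0755) without siMock 0.5 mM replicate 1 or siACL 0.5 mM replicate 2. JUND, FOSL2 and EGR3 were called at no dose, with intervals that reach 0.115 for JUND, 0.933 for FOSL2 and -1.36 for EGR3 at their widest.

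**Figure D3:**
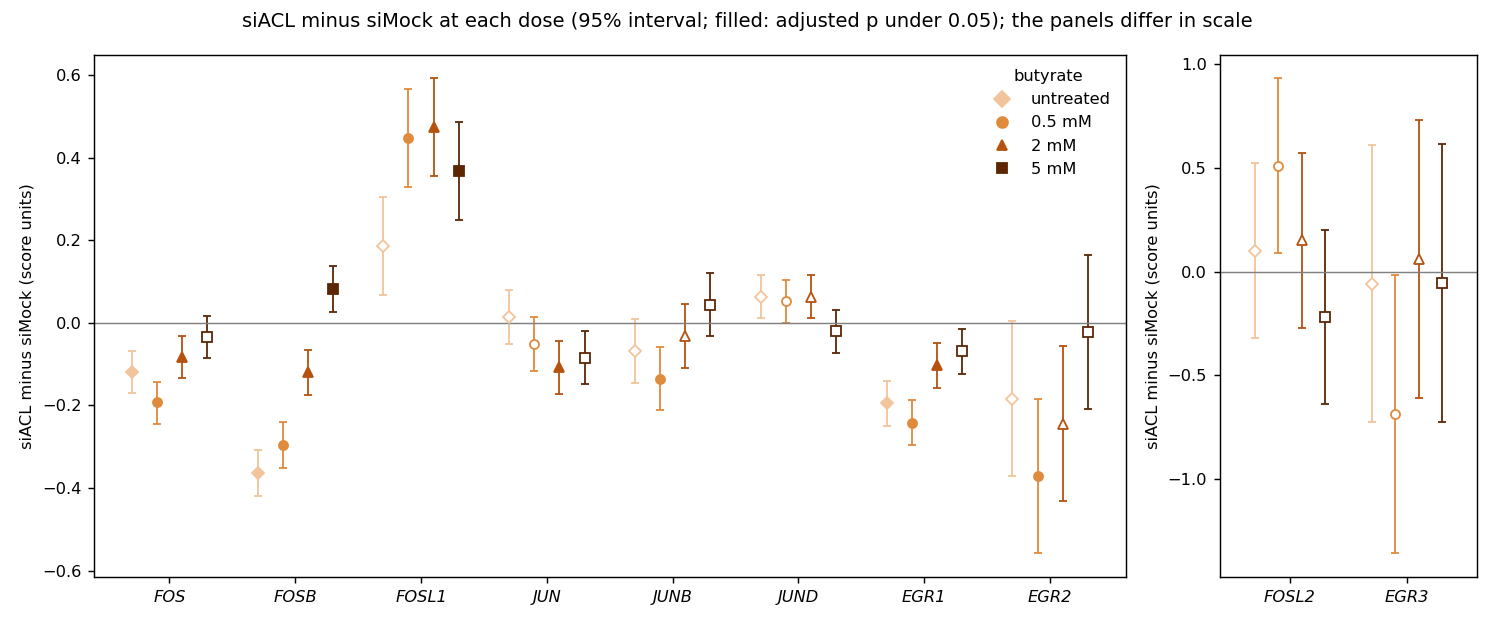
siACL minus siMock difference in score units (vertical axes) for each gene at each butyrate dose; bars are 95% intervals, filled points have a limma adjusted p under 0.05, and the right panel (FOSL2, EGR3) has a wider scale. FOSB runs from -0.364 without butyrate to 0.082 at 5 mM, FOS and EGR1 approach 0, and FOSL1 stays above 0.

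Whether butyrate changed a gene by a different amount in the arms was tested as the siACL change minus the siMock change. FOSB changed more in siACL cells by 0.244 ± 0.037 at 2 mM (adjusted p 0.000584) and by 0.446 ± 0.037 at 5 mM (adjusted p 7.47e-07). FOSL1 fell less in siACL cells at 2 mM (0.289 ± 0.079, adjusted p 0.0384), and EGR1 rose more at 5 mM (0.126 ± 0.036, adjusted p 0.0378). These made 2 of 10 members at 2 mM, where 6.19% of all genes were called, and 2 of 10 at 5 mM (8.85%). At 0.5 mM limma called 0 of 10 (3.10% of all genes), with 2 members, FOS and FOSL1, at an unadjusted p under 0.05. By the same unadjusted threshold there were 4 members at 2 mM and 7 at 5 mM. The share of all genes at that threshold was not recorded. The FOSL1 call was lost (0.257 to 0.308, adjusted p up to 0.0938) without any 1 of siMock untreated replicates 2 and 3, siMock 2 mM replicates 2 and 3, the siACL untreated replicates, and siACL 2 mM replicates 2 and 3. The EGR1 call was lost (0.098 to 0.132, adjusted p 0.0536 to 0.0964) without any 1 of siMock untreated replicates 2 and 3, siMock 5 mM replicates 1 and 2, siACL untreated replicates 1 and 3, and the siACL 5 mM replicates. FOSL1 was not called at 5 mM (0.183, 95% interval 0.015 to 0.350, adjusted p 0.186), nor EGR1 at 2 mM (0.092, 0.016 to 0.169, adjusted p 0.159). For FOS the difference in change was 0.086 at 5 mM (95% interval 0.014 to 0.158, adjusted p 0.144) and for JUN -0.099 (-0.190 to -0.007, adjusted p 0.191), which were not called.

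Comparisons across arms and doses, chosen after the members' values were seen, set siACL cells beside siMock cells at the next lower dose. At 2 mM in siACL against 0.5 mM in siMock, EGR1 differed by 0.010 (95% interval -0.044 to 0.064), FOS by -0.032 (-0.083 to 0.018), JUNB by 0.001 (-0.076 to 0.078) and EGR2 by 0.064 (-0.123 to 0.251), and none of these was called. FOSL1 (0.285, adjusted p 0.00482), JUN (0.308, 7.68e-06) and JUND (0.122, 0.00591) were higher and FOSB was lower (-0.138, 0.00366), which makes 4 of 10 members where 6.81% of all genes were called. At 5 mM in siACL against 2 mM in siMock, JUN (0.138, adjusted p 0.00747) and JUND (0.093, 0.0219) were higher, 2 of 10 members where 10.8% of all genes were called, and EGR1 differed by 0.020 (-0.034 to 0.074). The JUND call was lost (0.062 to 0.076, adjusted p 0.105 to 0.110) without siMock 2 mM replicate 3 or siACL 5 mM replicate 1. Fits on only the arrays compared kept none of these calls.

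The genes whose scores followed each member most closely were sought by Pearson correlation over the 24 arrays, which share the dose series. FOS was followed most closely by C20orf3 (r = 0.983), EGR1 (0.978) and SLC29A4 (0.978), and EGR1 by FOS (0.978), C20orf3 (0.977) and IGSF3 (0.977), so FOS and EGR1 are among each other's nearest genes. JUN was followed by LGMN (0.986), LOC645166 (0.981) and SLC9A3R1 (0.981), and EGR2 by GSTA4 (0.980), NCALD (0.976) and FAM71E1 (0.976). FOSL1 went with TNFRSF10A (0.965), LOC100131387 (0.964) and SYNCRIP (0.963), and FOSB, with no partner as close, with DNAJC18 (0.917), RAB26 (0.883) and SGCE (0.879). JUND was nearest to LAMA3 (0.938), RHOB (0.938) and ADIPOR2 (0.932), JUNB to FARP1 (0.898), CDH1 (0.896) and HLA-H (0.867), and EGR3 to SNX2 (0.894), ABHD8 (0.893) and LOC390349 (0.891). FOSL2 had the loosest companions, LOC100132565 (0.740), CD72 (0.675) and LOC440748 (0.653). Within the family, r was 0.91 between FOS and JUN, 0.93 between EGR2 and each of FOS, JUN and EGR1, 0.49 between FOSB and JUN, and -0.89 between FOS and FOSL1.

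Other genes of these pathways were examined in 9 lists. In siMock cells at 5 mM, 25.6% of all genes were called higher and 25.2% lower. Among other immediate early genes 8 of 16 measured rose and 2 fell, with a median difference of 0.087. The largest were CTGF (1.46 ± 0.028) and CYR61 (1.15 ± 0.030), secreted matricellular proteins, and DUSP1 (0.568 ± 0.038), a phosphatase of MAP kinases. In siACL cells 11 of the 16 rose and 2 fell at 5 mM (22.7% and 22.6% of all genes), with CTGF at 1.52, CYR61 at 1.18 and DUSP1 at 0.531. Between the arms at 5 mM (8.80% of all genes higher and 4.91% lower in siACL cells), 2 of these genes were higher and 4 lower, among them CYR61 (-0.183 ± 0.030, adjusted p 0.00047) and ZFP36L1, an mRNA decay factor (0.174 ± 0.033, adjusted p 0.00146).

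Partners and upstream regulators did not share 1 direction in siMock cells at 5 mM. There 25.6% of all genes rose and 25.2% fell, so calls in both directions were common. Of 7 AP-1 dimer partners and MAF genes, 2 rose and 1 fell, with the small MAF factor MAFF at 0.185 ± 0.066 and BATF3, a partner of JUN proteins, at -0.451 ± 0.170. Of 7 genes for SRF and its partners, 1 rose and 5 fell. The actin-regulated coactivator MKL1 (0.876 ± 0.106) was higher, and the ternary complex factors ELK3 (-0.705 ± 0.156) and ELK4 (-0.493 ± 0.159) were lower. In siACL cells 1 of the 7 rose and 2 fell (22.7% and 22.6% of all genes). Between the arms (8.80% of all genes higher and 4.91% lower), ELK3 (0.549 ± 0.156, adjusted p 0.0251) and the LIM-domain cofactor FHL2 (0.170 ± 0.028, adjusted p 0.000556) were higher in siACL cells. Of 9 genes of the JNK pathway and JUN turnover, 3 rose and 2 fell. The JNK scaffold MAPK8IP1 went from -2.28 to 0.30 (2.58 ± 0.168), while ITCH (-0.165 ± 0.043), a ubiquitin ligase of JUN, and MAP2K4 (-0.154 ± 0.026), an activator of JNK, fell. COPS5, a JUN cofactor, was lower in siACL than in siMock cells at 5 mM (-0.085 ± 0.023, adjusted p 0.0206). Neither of 2 EGR corepressors measured was called in siMock cells at 5 mM, and 1 of them was higher than untreated in siACL cells at that dose.

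The ERK cascade and its feedback genes moved in both directions, as did all genes (25.6% higher and 25.2% lower in siMock cells at 5 mM). Of 10 cascade genes, 1 rose and 4 fell in siMock cells at 5 mM, with ARAF at -0.240 ± 0.040 and MAP2K2, which encodes MEK2, at 0.136 ± 0.047. Between the arms at 5 mM 2 were higher in siACL cells and none lower (8.80% and 4.91% of all genes), among them NRAS (0.116 ± 0.037, adjusted p 0.0488). Of 9 feedback genes, which ERK signalling induces, 6 rose and 2 fell in siMock cells. The ERK phosphatase DUSP6 rose (0.323 ± 0.022), and PHLDA1 (-0.758 ± 0.025) and the pathway inhibitor SPRY4 (-0.374 ± 0.029) fell. In siACL cells 4 of the 9 rose and 2 fell (22.7% and 22.6% of all genes). Against siMock cells at 5 mM, 5 of the 9 were higher and none lower, led by PHLDA1 (0.288 ± 0.025, adjusted p 6.49e-07) and SPRY4 (0.203 ± 0.029, adjusted p 0.00012).

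Known targets were mixed, as were all genes (25.6% higher and 25.2% lower in siMock cells at 5 mM). Of 16 AP-1 target genes, 7 rose and 5 fell in siMock cells at 5 mM (median difference 0.198), and 7 rose and 4 fell in siACL cells (22.7% and 22.6% of all genes). The matrix metalloproteinases MMP9 (2.22 ± 0.144) and MMP10 (2.18 ± 0.201) rose from the bottom of the array, and MMP7 fell (-1.55 ± 0.198). Between the arms at 5 mM, 3 of the 16 were higher and 1 lower in siACL cells (8.80% and 4.91% of all genes), with a median difference of -0.011. The higher ones included MMP7 (1.22 ± 0.198, adjusted p 0.000421) and SPP1, which encodes osteopontin (0.307 ± 0.075, adjusted p 0.0110). Of 8 EGR1 target genes, 2 rose and 1 fell, with heparanase HPSE at 0.413 ± 0.040 and tissue factor F3 at -0.198 ± 0.040. Between the arms at 5 mM, 2 of these 8 were higher in siACL cells and none lower, with a median difference of 0.009. They were the growth factor PDGFB (0.294 ± 0.054, adjusted p 0.00123) and the stress cytokine GDF15 (0.134 ± 0.030, adjusted p 0.00525).

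**Figure D4:**
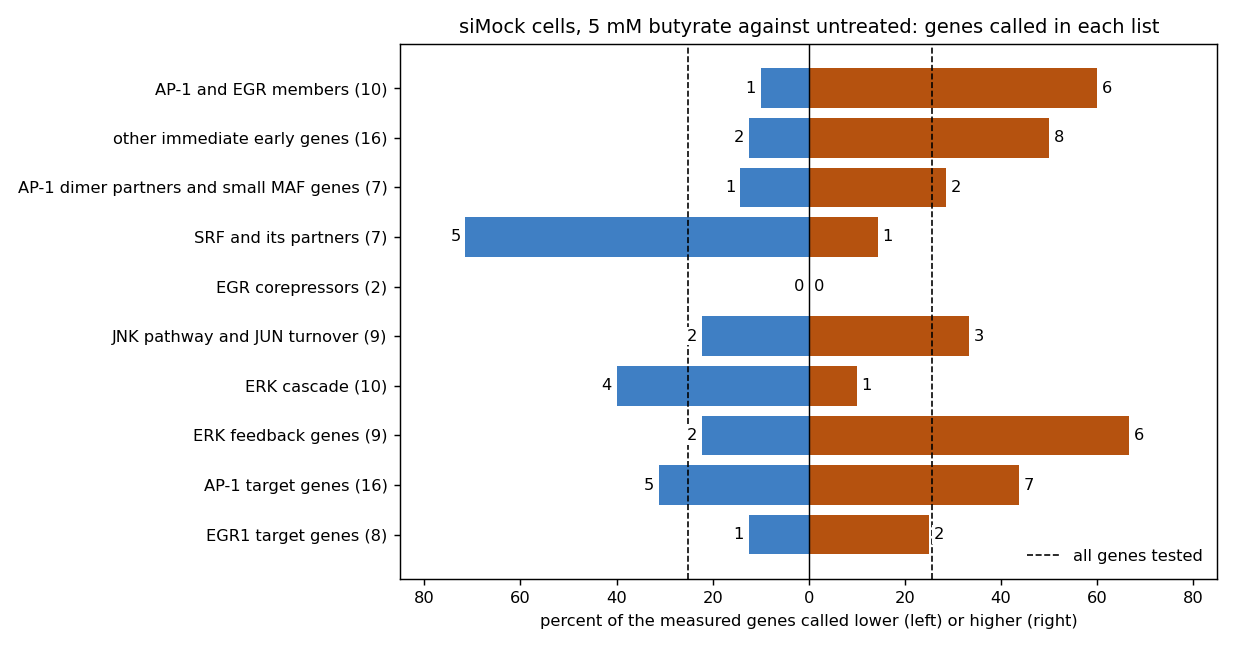
Percent of the measured genes in each list (number in brackets) called lower (left, blue) or higher (right, orange) in siMock cells at 5 mM butyrate against untreated, with the number of genes beside each bar; dashed lines mark all genes tested (25.2% lower, 25.6% higher). The members and the other immediate early genes have more genes called higher than lower (6 and 1, and 8 and 2), and SRF and its partners have 5 lower and 1 higher.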

How the data were processed

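The authors deposited 1 value per entry and array for 20747 entries, and no source used here describes how the scores were made. Each array follows the normal quantiles of its ranks (largest gap 0.000744), so the deposited values are scores of rank, not log2 values or signals. Per the labels' protocols, total RNA was turned into biotinylated cRNA for Illumina arrays. A second deposited table has 48 columns of signal and detection p that no label ties to a sample. They were not used, so depth and signal over background are unknown, and their part in precision was not tested. Precision differed between genes on the same arrays, with a residual SD of 0.026 for FOS and 0.401 for EGR3. The annotation in that second table gave symbols to 18172 genes, each once. The design had allowed for log2 values, and the same tests were run on the scores.

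One mean per group was fitted over all 24 arrays with limma 3.58.1 in R 4.3.3 (no block, residual degrees of freedom 16), and p-values were adjusted by Benjamini-Hochberg over the 18172 genes within each comparison, with calls under 0.05. The fit was tested on simulated data. Figures were drawn with matplotlib 3.10.9. The members, the 9 lists and the tests were chosen with earlier results of these data known. List genes that were not measured are not analysed here. Named are the members, ACLY, up to 3 called genes of each list with the largest difference in siMock at 5 mM and up to 2 in siACL against siMock at 5 mM, and the 3 genes closest to each member. Some genes that this rule names are not reported here. Replicate numbers do not pair the samples: deviations of same-numbered arrays correlated at -0.04 to 0.03 over 84 pairs. Where the labels' biological replicates share a culture, p-values measure a smaller spread. Alternatives were fits on only the arrays compared, a replicate block, array weights, a trend and robust prior, percentile ranks, a stricter threshold of 0.01, all entries, genes with a mean score above 0 and leaving out each array in turn.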

Additional observations from a re-analysis of the deposited data

Results flagged for a closer look

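The responses of FOSB, FOSL1 and EGR1 to butyrate differed between the arms by the test of the difference itself (limma, adjusted over all genes). FOSB changed more in siACL than in siMock cells by 0.244 ± 0.037 at 2 mM (adjusted p 0.000584) and by 0.446 ± 0.037 at 5 mM (adjusted p 7.47e-07), and at 5 mM its mean change was -0.051 in siMock and 0.395 in siACL cells. FOSL1 fell less in siACL cells at 2 mM, with a difference in change of 0.289 ± 0.079 (adjusted p 0.0384). At 5 mM its difference in change was not called (0.183, adjusted p 0.186). EGR1 rose more in siACL cells at 5 mM, with a difference in change of 0.126 ± 0.036 (adjusted p 0.0378), and was not called at 2 mM (0.092, adjusted p 0.159). The FOSL1 and EGR1 calls were each lost when any of 9 of the 12 arrays involved was left out (FOSL1 0.257 to 0.308, EGR1 0.098 to 0.132), and the EGR1 call also in a fit on only the arrays compared (adjusted p 0.132) and over all entries (0.0507). The FOSB calls were kept under each array left out. ACLY itself had a difference in change of -0.289 at 5 mM (adjusted p 1.28e-05), and the part of the depth of depletion in these results was not tested.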

How the results depend on the processing

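Of 95 called differences of members over the 19 comparisons, none reversed under any alternative, 76 were kept when each array was left out in turn and 19 were lost without at least 1 array. The replicate block kept 95 of 95 and left FOSB at 5 mM at 0.446 (adjusted p 2.07e-06), and the trend and robust prior kept 95. Percentile ranks lost 19, a threshold of 0.01 lost 17, all entries lost 3 and array weights lost 1. Fitting only the arrays compared, which leaves few degrees of freedom, lost 38. Members called there were 1 for siACL at 0.5 mM against untreated, 2 for siMock 2 against 0.5 mM, 1 for siMock 5 against 2 mM, 3 for siACL 2 against 0.5 mM, 1, 1 and 0 for siACL against siMock without butyrate and at 2 and 5 mM, and 1 for the difference in change at 5 mM. A threshold of 0.01 gave 2 for siMock 2 against 0.5 mM, 3 and 1 for siACL against siMock at 2 and 5 mM, and 1 for the difference in change at both 2 and 5 mM. Percentile ranks gave 4 for siMock 5 against 2 mM and 3 and 1 for siACL against siMock at 2 and 5 mM. With the trend and robust prior, or with genes of mean score above 0 (8 members), siACL against siMock at 5 mM had 4 and the difference in change at 0.5 mM had 1. All entries gave 1 for siACL against siMock at 5 mM and 1 for the difference in change at 5 mM. Leaving out 1 array, siACL against siMock had 3 to 5 members at 2 mM and 1 to 2 at 5 mM, and the difference in change had 1 to 2 at 2 mM and 1 to 3 at 5 mM. The share of all genes called was not recorded under these alternatives, so these counts do not set the members apart from other genes. The cause of the shifts between settings was not tested. EGR3 and FOSL2 had the largest residual SD of the members (0.401 and 0.252), so their uncalled differences set wide limits.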
